A study of Mus musculus with 18 samples.

Results

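The genes described here are 36 short, single-exon gene models on mouse chromosome 13, in the region where the larger of the mouse clusters of replication-dependent histone genes lies. They were taken from the 27473 gene models of the deposited count table by position and structure alone: a start between 21.7 and 23.9 Mb on build mm9, 1 exon, and a length of 300 to 700 bases. The libraries are from differentiated 3T3-L1 adipocytes at passage 15, the fat cells that this mouse fibroblast line forms in culture. The 18 libraries form 6 groups of 3, and all cells had been transduced with lentivirus for 6 days.

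In the overexpression arm, Irf3_2D cells were labelled as overexpressing Irf3, the gene of an innate immune transcription factor, and EGFP cells were their vector control. The labels do not explain the term 2D. In the knockdown arm, shIrf3 cells were labelled as Irf3 knockdown and shLuc cells as its control. Both of these were also sampled after treatment with LPS (lipopolysaccharide, from the outer membrane of bacteria), as shIrf3_LPS and shLuc_LPS. The labels give 6 further days of LPS for the knockdown cells, and do not give the time for shLuc_LPS or say how long untreated cells were kept, so the effects of LPS and of a longer culture cannot be told apart. Each knockdown group is named for 1 hairpin target, and no label says that replicates were separate cultures. The p-values therefore measure only how far these libraries differ, and that spread may be technical.

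Histones are the proteins around which DNA is wound: H2A, H2B, H3 and H4 form the core of the nucleosome, and H1 binds the linker DNA between nucleosomes. The replication-dependent genes lie in clusters in many near-identical copies, lack introns, and are transcribed mainly during S phase of the cell cycle. Their mRNAs end in a conserved stem-loop in place of a poly(A) tail. Mature adipocytes have largely left the cell cycle, although 3T3-L1 cells divide early in their differentiation. Because ribosomal RNA was removed from these samples before library construction, the protocol did not depend on a poly(A) tail.

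The stem-loop is shown because it is the feature that sets these transcripts apart from most other mRNAs. In the GENCODE M21 annotation (build GRCm38), the 16-base sequence most often found after the stop codon of the Hist1h genes of chromosome 13 was the following, with the 6-base arms of the stem in capitals and the 4-base loop in lower case.
Histone stem-loop: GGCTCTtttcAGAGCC
It was present in 19 of the 41 genes whose annotated transcript ran at least 16 bases past the stop codon, and began 25 to 47 bases after it, with a median of 32. Across the annotation 31 of 141767 transcripts (0.0219%) held this sequence, in 29 genes. This is a match of letters in the reference and not a measurement of the libraries.

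The deposited table identifies gene models by UCSC identifiers, and 0 of the 36 were found in the gene name tables used here, so the models are given by identifier and mm9 position and not by histone gene symbol. Their lengths were compared with those of known histone genes. In GENCODE M21, all 11 H4 genes of the cluster have a coding length of 312 bases, 11 of 15 H2B genes have 381, 11 of 13 H2A genes have 393 and all 9 H3 genes have 411, and each of these 4 lengths belongs to 1 histone type only. Of the 36 gene models, 7 had a length of 312 bases, 7 of 381, 4 of 393 and 2 of 411, so 20 had exactly the coding length of a core histone. A further 3 had the coding length of rarer members: uc007pri.1 (672 bases) that of 1 H1 gene, uc007prr.2 (405 bases) that of 2 H2B genes and uc007psa.1 (387 bases) that of 1 H2A gene. The reference transcripts of those 2 H2B genes have 2 exons, while uc007prr.2 has 1, so that match is not like for like. The remaining 13 had the coding length of no histone gene of the cluster, as a model that includes untranslated sequence would. A shared length is a description and does not identify the gene.

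The models fall into a pair of blocks. The first holds 20 models between 21807632 and 22135479, and the second 16 models between 23622913 and 23854255, with 1487814 bases from the start of the last model of the first block to the start of the second block. Of the 36, 17 lie on the plus strand and 19 on the minus strand. The same window holds 67 further gene models that the rule left out: 48 longer single-exon models, 1 shorter one and 18 with several exons. Next to the length limits, uc007pri.1 (672 bases, mean 5.35 CPM, counts scaled to a library of 1000000) was inside and uc007pud.1 (704 bases, mean 0.561 CPM) was outside, while at the lower end uc007pre.1 (312 bases, 0.447 CPM) was inside and uc011ywv.1 (132 bases, 0.112 CPM) was outside.

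Together the 36 models took up 30421 of 495799437 reads counted over the 18 libraries. Library totals ran from 22143302 to 34368259, and the models received 1167 to 2382 counts per library. Most were therefore measured at low depth. The CPM values are scaled by TMM factors. Only 7 of the 36 had a mean of at least 1 CPM over the 18 libraries, 9 had a mean under 0.1 CPM, and 23 had a count in every library. The median over the 36 was 0.242 CPM. Among the 18 libraries, shLuc replicate 1 stood apart in its share of counts from the mitochondrial chromosome, 14.2% against at most 7.17% in the others.

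For 3 models, uc007prq.2, uc007prs.1 and uc007prt.2, no read was counted in any library, which allows a level of up to 0.00605 CPM (3 counts over the summed totals). They lie between 21902236 and 21925444 in the first block. Reads that match several gene copies can be lost or split in such counting, and how the authors set their tools for such reads is not given in the sources used here. In the reference, a median of 71.5% of the 50-base stretches in an H4 coding sequence also occurred in another gene of the annotation, and the medians were 85.8% for H2A, 82.8% for H2B, 76.2% for H3 and 10.9% for H1. The levels of the individual models, and the 0 counts, are uncertain for this reason. Its part in the results was not tested.

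A few models held most of the reads. uc007psc.1 (chromosome 13, 22132685 to 22133221, minus strand, 537 bases) alone received 46.7% of the counts, with a mean of 29.0 CPM. It was followed by uc007ptv.2 (23622913 to 23623390, plus strand, 478 bases) with 15.5%, uc007pri.1 (21871752 to 21872423, minus strand, 672 bases) with 8.84%, uc007prr.2 (21903615 to 21904019, plus strand, 405 bases) with 6.91% and uc007pue.2 (23663269 to 23663883, plus strand, 615 bases) with 4.36%. These 5 models held 82.3% of the counts, and the other 31 shared the rest. Per kilobase of length the mean levels were 54.0 CPM per kb for uc007psc.1, 19.7 for uc007ptv.2, 10.5 for uc007prr.2, 7.97 for uc007pri.1 and 4.38 for uc007pue.2, and the median over the 36 models was 0.613 CPM per kb. None of the 5 has the modal coding length of a core histone.

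By mean CPM, uc007puo.1 (23790007 to 23790318, minus strand) and uc007puh.1 (23673471 to 23673782, plus strand) came next, both of 312 bases, the H4 coding length. Per kilobase, at 4.54 and 4.53 CPM per kb, they were slightly above uc007pue.2. The median level per kilobase was 1.43 CPM per kb over the 7 models of 312 bases, 0.516 over the 7 of 381 bases, 0.239 over the 4 of 393 bases and 0.348 over the 2 of 411 bases. The order of these classes is a description, since models of the same class share sequence and may share reads.

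**Figure D1:**
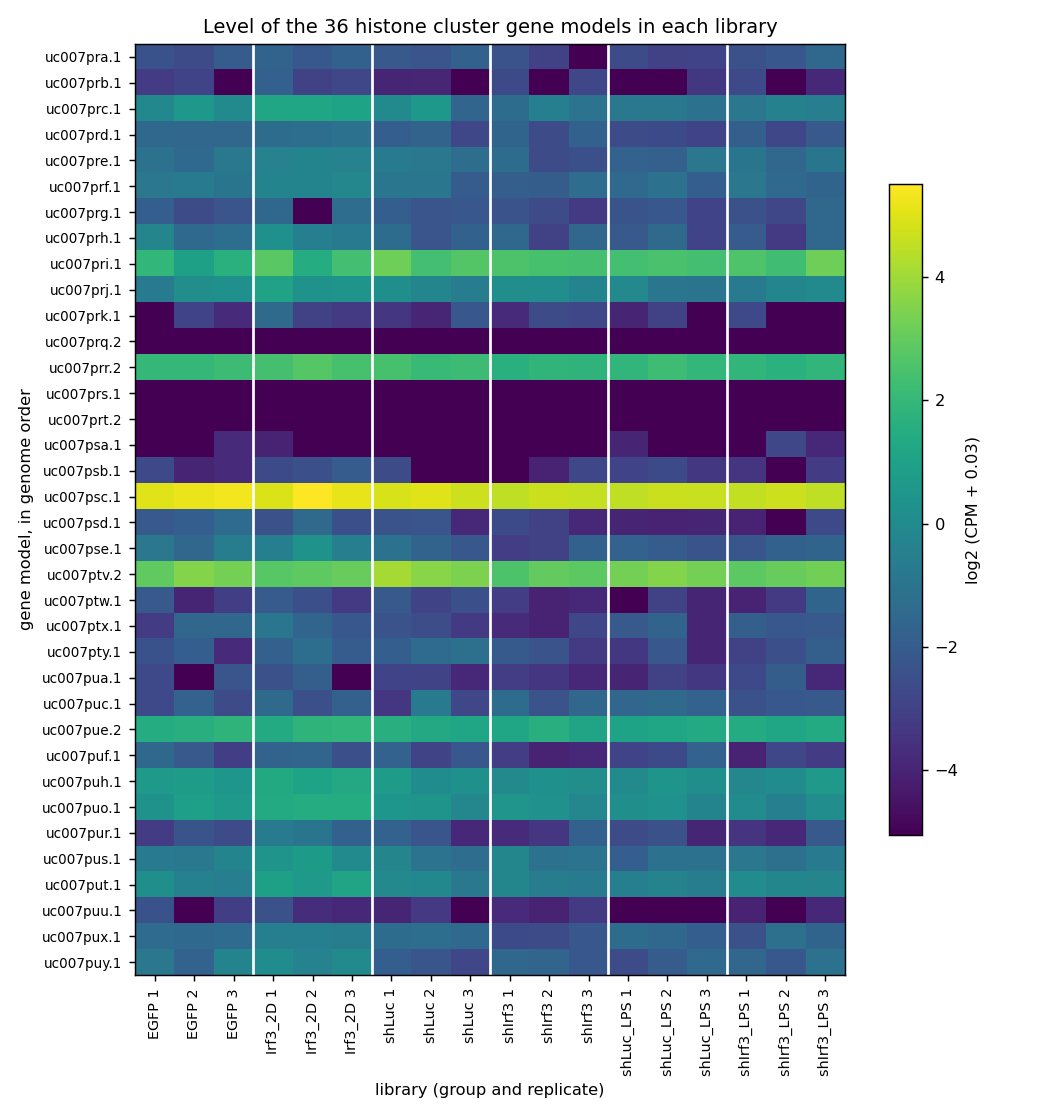
Level of each of the 36 gene models (rows, in genome order) in each of the 18 libraries (columns, by group and replicate), as log2 of CPM plus 0.03. The row of uc007psc.1 is the brightest in every library, and 3 rows are at the floor of the scale throughout.

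The 36 levels were summed in each library to describe the cluster as a whole. The sum was 67.8 ± 5.71 CPM (SD, n = 3) in EGFP, 78.7 ± 5.95 in Irf3_2D, 66.3 ± 9.10 in shLuc, 50.1 ± 1.96 in shIrf3, 53.8 ± 3.50 in shLuc_LPS and 53.4 ± 3.62 in shIrf3_LPS. Irf3_2D libraries (74.5 to 85.5 CPM) all lay above EGFP libraries (61.6 to 72.8), and shIrf3 libraries (48.4 to 52.2) all lay below shLuc libraries (57.3 to 75.5). In bulk RNA, fewer cells that express a gene and less of its RNA per cell cannot be told apart. Sums over the models were not tested, because the most abundant model decides much of each sum.

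The sum was therefore also split into the 5 most abundant models and the other 31, a division made after the levels had been seen. In the overexpression arm the 5 abundant models summed to 56.1 ± 5.53 CPM in EGFP and 58.5 ± 6.82 CPM in Irf3_2D, a ratio of 1.04, and the groups overlapped. The other 31 summed to 11.7 ± 0.188 CPM in EGFP and 20.3 ± 1.62 CPM in Irf3_2D, a ratio of 1.73. Each Irf3_2D library (19.02 to 22.1 CPM) lay above each EGFP library (11.6 to 11.9 CPM). These values rest on 903 and 1615 counts. The ratio was 1.65 to 1.78 with any 1 of the 6 libraries left out, and 1.74 with scaling by library totals alone.

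In the knockdown arm the ratios of shIrf3 to shLuc lay closer together, at 0.748 for the 5 abundant models and 0.795 for the other 31. The 5 summed to 56.5 ± 6.86 CPM in shLuc and 42.3 ± 2.62 CPM in shIrf3, with no overlap, while the other 31 summed to 9.82 ± 2.37 and 7.80 ± 0.780 CPM and overlapped. The LPS groups lay at 46.2 ± 2.92 (shLuc_LPS) and 44.8 ± 2.37 CPM (shIrf3_LPS) for the 5 abundant models, and at 7.58 ± 0.889 and 8.58 ± 1.34 CPM for the other 31.

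**Figure D2:**
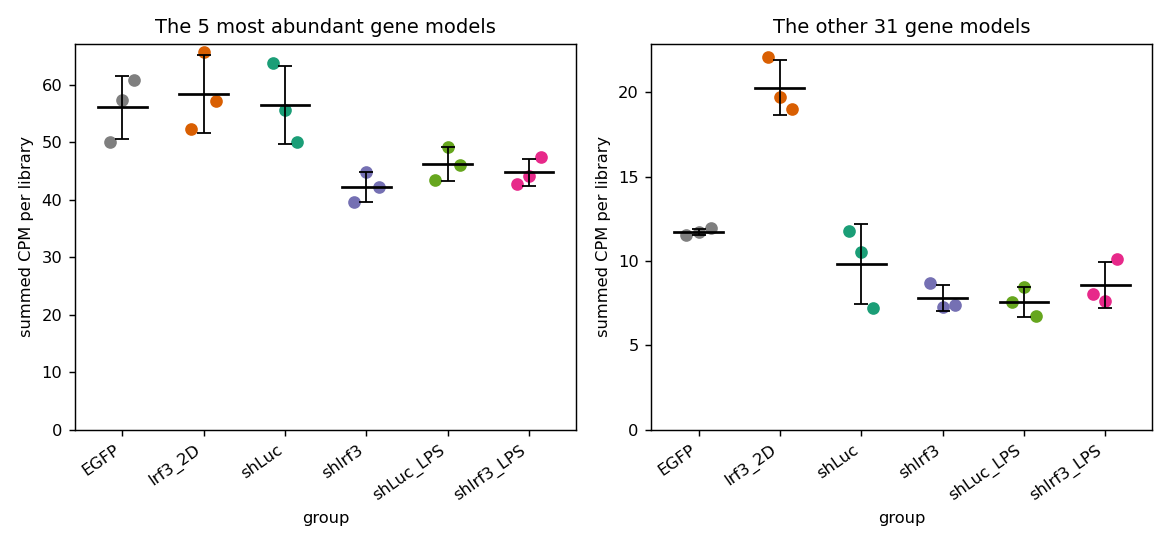
Summed CPM per library (points), group mean (horizontal bar) and SD (error bar, n = 3) for the 5 most abundant gene models (left) and for the other 31 (right), by group. On the right the Irf3_2D libraries lie between 19.02 and 22.1 CPM and the EGFP libraries between 11.6 and 11.9, while on the left these groups overlap.

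Overexpression of Irf3 was compared with its vector control in a fit of these 6 libraries, in which 17 of the 36 models passed the filter on low counts. By edgeR's quasi-likelihood test with Benjamini-Hochberg adjustment, 0 of the 17 passed an adjusted p of 0.05, where 1.45% of all gene models tested did. At an unadjusted p under 0.05, 8 of the 17 were higher and 0 lower, against 5.46% higher and 5.40% lower among all gene models tested. DESeq2 called 1 model higher and limma-voom called 0. The shares of all gene models that these tools called were not computed, so these counts have no background beside them. The fitted log2 fold change was above 0 for 16 of the 17, with a median of 0.77, against 53.6% above 0 and a median of 0.02 over all gene models tested. In 11 of the 17 each Irf3_2D library lay above each EGFP library, where this held for 8.35% of all gene models tested.

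A low model can pass the filter because it is high in 1 group, so these counts over the models that passed lean toward models that differ. With no filter, 30 of the 33 models with any count in the fit were above 0, with a median of 0.62. Some of these had very few counts, such as uc007psa.1 with 1 in EGFP and 1 in Irf3_2D. The share above 0 over all gene models was not computed for the fit with no filter, so this count has no background beside it. The difference for single models was not detectable after adjustment in this fit, whose biological coefficient of variation was 0.171.

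The smallest p belonged to uc007put.1 (23842957 to 23843462, plus strand, 506 bases). Its levels were 1.13, 0.711 and 0.663 CPM in EGFP and 1.91, 1.57 and 2.10 CPM in Irf3_2D, with no overlap. The log2 fold change was 1.16 ± 0.28 (SE), with an adjusted p of 0.0987 by edgeR. The call depended on the fit: the adjusted p was 0.0476 by DESeq2 and 0.00468 by edgeR with all 18 libraries in 1 fit. Without Irf3_2D replicate 2, edgeR called 2 models higher, uc007put.1 (adjusted p = 0.0245) and uc007pri.1 (adjusted p = 0.0303).

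The 2 most abundant models did not differ in this way. uc007psc.1 was at 31.9, 36.8 and 40.0 CPM in EGFP and at 30.6, 45.6 and 34.8 CPM in Irf3_2D. Its log2 fold change was 0.02 ± 0.17 (SE), with an adjusted p of 0.988 by edgeR, and its sign changed with the library left out. uc007ptv.2 was at 7.65, 11.7 and 9.85 CPM in EGFP and at 6.82, 7.45 and 8.23 CPM in Irf3_2D, a log2 fold change of -0.38 ± 0.19 (SE) with an adjusted p of 0.55 by edgeR. It was the only model of the 17 with a fitted change below 0.

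Among the other abundant models, uc007prr.2 was at 3.95, 3.96 and 4.46 CPM in EGFP and at 5.25, 6.52 and 5.37 CPM in Irf3_2D, with no overlap. uc007pri.1 was at 3.83, 1.89 and 3.14 CPM in EGFP and at 7.03, 2.79 and 5.11 CPM in Irf3_2D, so its groups overlapped. uc007pue.2 was at 2.74, 2.94 and 3.45 CPM and at 2.63, 3.48 and 3.72 CPM, again overlapping. None of these passed the adjusted test.

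Of the 7 models with the length of an H4 coding sequence, 5 could be tested, and none of these passed the adjusted test in this fit. uc007puo.1 was at 1.25, 1.86 and 1.55 CPM in EGFP and at 2.59, 2.75 and 2.74 CPM in Irf3_2D, with no overlap, and its log2 fold change was 0.78 ± 0.22 (SE) with an adjusted p of 0.165 by edgeR. With all 18 libraries in 1 fit this was the other model called besides uc007put.1 (adjusted p = 0.0347). uc007pre.1 was at 0.443, 0.338 and 0.530 CPM in EGFP and at 0.750, 0.784 and 0.752 CPM in Irf3_2D. The fitted log2 fold changes of the 5 tested models of 312 bases lay between 0.60 and 0.92. The 7 models of this length, tested or not, summed to 4.49 ± 0.235 CPM in EGFP and 7.42 ± 0.102 CPM in Irf3_2D, a ratio of 1.65 with no overlap.

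The other length classes gave fewer counts. The 7 models of 381 bases, the usual H2B coding length, summed to 1.90 ± 0.456 CPM in EGFP and 3.03 ± 0.387 CPM in Irf3_2D, a ratio of 1.60 with no overlap. The 4 models of 393 bases, the usual H2A length, summed to 0.402 ± 0.110 and 0.702 ± 0.395 CPM, and the 2 of 411 bases, the H3 length, to 0.258 ± 0.0324 and 0.332 ± 0.155 CPM. In both of these the groups overlapped. The pair of blocks did not stand far apart, with a median fitted log2 fold change of 0.70 over 9 tested models in the first and 0.81 over 8 in the second.

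**Figure D3:**
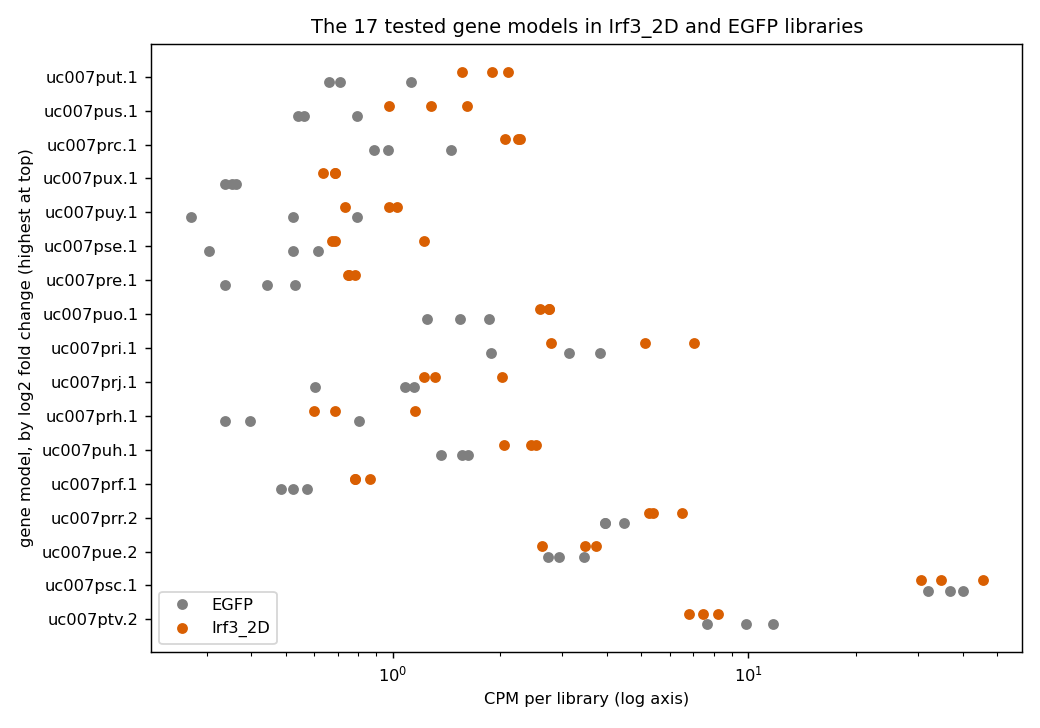
CPM (log axis) in each EGFP library (grey) and each Irf3_2D library (orange) for the 17 tested gene models, ordered by fitted log2 fold change. The Irf3_2D points lie to the right of all EGFP points in 11 rows, while in the rows of uc007psc.1, uc007ptv.2 and uc007pue.2 the points overlap.

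Other gene models were set beside these by position and structure. Of 49 tested models elsewhere in the genome with 1 exon and 300 to 700 bases, a set that includes the histone windows on chromosomes 3 and 11, 0 were called by edgeR (10 had an unadjusted p under 0.05, 9 of them higher), 65.3% were above 0 and the median log2 fold change was 0.27. In the window on chromosome 3 where a smaller histone cluster lies, 4 of 6 such models were tested, all 4 were above 0 and the median was 0.42. In the window of the small cluster on chromosome 11, 0 of 2 such models could be tested. The 18 tested models that the rule left out in the chromosome 13 window had a median of -0.02. Single-exon models under 200 bases, which take reads of small RNAs, made up 0.0375% ± 0.00284 of counts in EGFP and 0.0361% ± 0.00334 in Irf3_2D, and these groups overlapped. Markers of dividing cells could not be looked up without gene symbols, and the share of dividing cells in each group was not tested.

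Knockdown of Irf3 without LPS was compared in a fit of the 12 libraries of that arm, in which 14 of the 36 models were tested. Lower levels in shIrf3 were called by edgeR for 2 of the 14, uc007ptv.2 and uc007psc.1, where 8.56% of all gene models tested were called and 3.91% were called lower. None of the 14 was called higher. At an unadjusted p under 0.05, 5 of the 14 were lower, against 11.3% lower among all gene models tested. DESeq2 called 3 lower and limma-voom 2, with no share over all gene models computed for either. The fitted change was below 0 for 13 of the 14, including uc007pus.1 at -0.0013, and was above 0 for 46.5% of all gene models tested. The median was -0.33, against -0.02 over all gene models tested. With a library left out, 0 to 5 of the models tested were above 0, and 1 to 9 under the other alternatives. A low model can pass the filter because it is high in 1 group, so counts from this fit lean toward models that differ. The sets compared by position and structure above also leaned lower. In the chromosome 3 window all 4 tested models were below 0, with a median of -0.31. Of the 19 tested models left out in the chromosome 13 window, 14 were below 0, with a median of -0.15, and 2 were called lower. Of the 55 tested single-exon models elsewhere, 37 were below 0, with a median of -0.105. Whether the 14 differed from these sets was not tested. In 5 of the 14 each shIrf3 library lay below each shLuc library, where 10.2% of all gene models tested did so.

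uc007ptv.2 was at 17.1, 12.5 and 10.7 CPM in shLuc and at 5.88, 7.92 and 7.11 CPM in shIrf3. The group means were 13.4 ± 3.34 and 6.97 ± 1.02 CPM (SD, n = 3), and the groups did not overlap. Its level fell by 0.96 ± 0.17 (SE) on the log2 scale, with an adjusted p of 0.00286 by edgeR. The call held in all 22 alternatives run, with an adjusted p between 3.63e-06 and 0.0294. Its highest value came from shLuc replicate 1, the library with 14.2% mitochondrial counts, and without that library the fall was 0.72 on the log2 scale.

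uc007psc.1, the most abundant model, was at 29.2, 31.5 and 26.3 CPM in shLuc and at 22.5, 25.1 and 24.2 CPM in shIrf3. The means were 29.0 ± 2.58 and 23.95 ± 1.29 CPM, with no overlap, and the level fell by 0.29 ± 0.08 (SE) on the log2 scale with an adjusted p of 0.0383 by edgeR. This call was close to the threshold. It was lost in 10 of 22 alternatives, with adjusted p of 0.143 with scaling by library totals, 0.128 with only the 6 libraries compared and 0.314 with all 18 libraries in 1 fit. It was also lost without shLuc replicate 2 (0.0564), without shIrf3 replicate 1, 2 or 3 (0.166, 0.0746 and 0.1), without shLuc_LPS replicate 2 or 3 (0.0511 and 0.0555) and without shIrf3_LPS replicate 1 (0.0527).

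**Figure D4:**
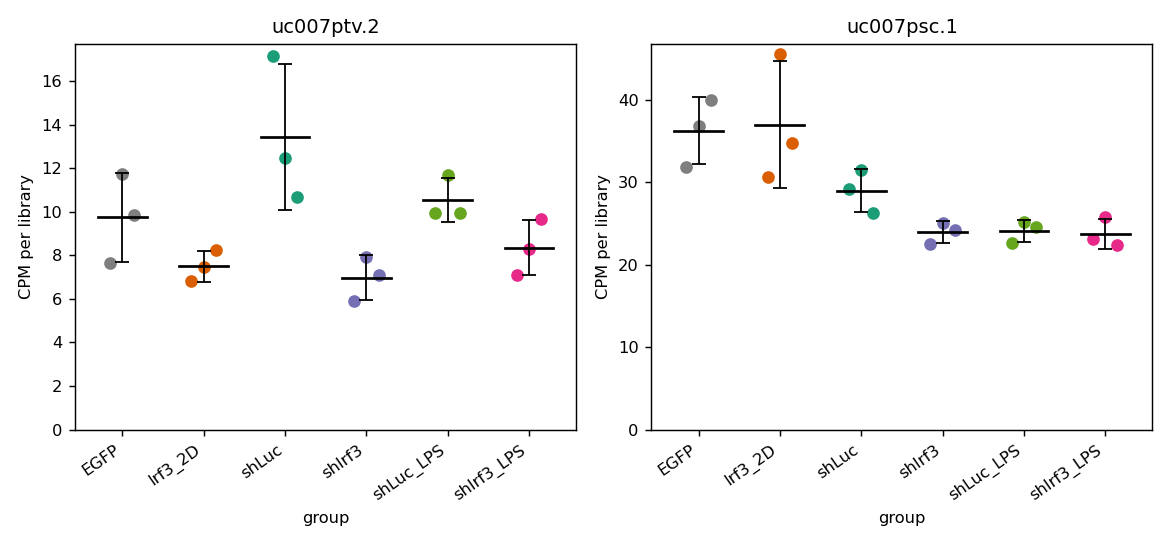
CPM per library (points), group mean (horizontal bar) and SD (error bar, n = 3) of uc007ptv.2 (left) and uc007psc.1 (right) in the 6 groups. In both panels the shIrf3 libraries lie below the shLuc libraries, and the highest shLuc point of uc007ptv.2, at 17.1 CPM, is shLuc replicate 1.

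The other 12 tested models did not pass in this fit. uc007prr.2 was at 5.39, 4.15 and 4.59 CPM in shLuc and at 3.11, 3.57 and 3.52 CPM in shIrf3, with no overlap and an adjusted p of 0.0537 by edgeR. It was the third model called by DESeq2 (adjusted p = 0.0478), and edgeR called it with a filter of at least 1 CPM in 3 libraries (0.0492) and without shLuc replicate 2 (0.0181). uc007pri.1 was at 9.04, 5.07 and 6.32 CPM and at 5.84, 5.37 and 5.22 CPM, and uc007pue.2 at 3.01, 2.45 and 2.22 CPM and at 2.28, 2.98 and 2.16 CPM, both overlapping. uc007puo.1 was at 1.37, 1.31 and 0.865 CPM in shLuc and at 1.33, 1.18 and 0.870 CPM in shIrf3, which overlap. The largest fitted changes were at low levels: uc007pux.1 (23852715 to 23853026, minus strand, 312 bases) had a mean of 0.366 ± 0.0258 CPM in shLuc and 0.148 ± 0.0356 CPM in shIrf3, with an adjusted p of 0.0853 by edgeR.

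Over the length classes, the 7 models of 312 bases summed to 3.83 ± 0.807 CPM in shLuc and 2.89 ± 0.172 CPM in shIrf3 and overlapped. The 7 of 381 bases summed to 1.56 ± 0.272 and 0.958 ± 0.268 CPM and did not overlap. Single-exon models under 200 bases made up 0.0322% ± 0.00488 of counts in shLuc and 0.0262% ± 0.00257 in shIrf3, with overlap, and their part in the result was not tested.

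Under LPS, the comparison of shIrf3_LPS with shLuc_LPS gave no call among the 14 models by edgeR, none at an unadjusted p under 0.05 and none by DESeq2 or limma-voom. The labels give no LPS time for shLuc_LPS, so hairpin and LPS time cannot be told apart here or in the interaction below. Of all gene models tested, edgeR called 8.20%, and 21.5% had an unadjusted p under 0.05. The fitted change was above 0 for 9 of the 14, with a median of 0.20. This median was 0.03 without shLuc_LPS replicate 3, 0.11 without shIrf3_LPS replicate 3 and 0.13 without shLuc_LPS replicate 2. Over all gene models tested 50.3% were above 0, with a median of 0.001. uc007ptv.2 was at 9.94, 11.7 and 9.94 CPM in shLuc_LPS and at 7.12, 8.29 and 9.66 CPM in shIrf3_LPS. Its log2 fold change of -0.31 ± 0.17 (SE) did not pass, with an adjusted p of 0.299 by edgeR. uc007psc.1 was at 22.6, 25.2 and 24.6 CPM in shLuc_LPS and at 23.1, 25.8 and 22.4 CPM in shIrf3_LPS, and these groups overlapped. uc007pri.1 was at 5.11, 5.56 and 5.11 CPM in shLuc_LPS and at 6.10, 4.73 and 9.09 CPM in shIrf3_LPS, and uc007prr.2 at 3.69, 4.65 and 3.85 CPM and at 3.70, 3.18 and 3.65 CPM. uc007pue.2 was at 2.06, 2.168 and 2.62 CPM in shLuc_LPS and at 2.71, 2.23 and 2.60 CPM in shIrf3_LPS, and uc007puo.1 at 1.12, 1.19 and 0.783 CPM and at 0.987, 0.681 and 1.06 CPM. In all 4 of these models the LPS groups overlapped.

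Whether the knockdown difference itself depended on LPS was tested by the interaction term. By edgeR, 0 of the 14 models and 0% of all gene models tested passed, and DESeq2 and limma-voom also called 0 of the 14. At an unadjusted p under 0.05, 4 of the 14 models were higher and 0 lower, against 3.68% higher and 1.98% lower among all gene models tested. Of the 19 tested models left out in the cluster window, 3 were higher and 0 lower, and of the 4 in the chromosome 3 window, 1 and 0. Of the 55 tested single-exon models elsewhere, 2 were higher and 1 lower. Whether the 14 differed from these sets was not tested. The interaction of uc007ptv.2 was 0.65 ± 0.24 (SE) on the log2 scale, with an adjusted p of 0.769 by edgeR. A difference between the knockdown effects with and without LPS was therefore not shown for any of these models.

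The effect of LPS in control cells uses the same shLuc libraries as the knockdown comparison. No model was called by edgeR, where 8.72% of all gene models tested were, and 2 of the 14 (14.3%) had an unadjusted p under 0.05, both lower in shLuc_LPS, against 11.3% lower among all gene models tested. All 14 fitted changes were below 0 in this fit, where 47.7% of all gene models tested were above 0. The median of the 14 was -0.26, against -0.01 over all gene models tested. With a library left out, 0 to 1 of the models tested were above 0, and 0 to 5 under the other alternatives. The 14 are only the models that passed the filter, which a low model can pass because it is high in 1 group. Without shLuc replicate 1 the median of the 14 was -0.12. In the chromosome 3 window 3 of 4 tested models were below 0, with a median of -0.30, and 1 was called lower. Of the 19 tested models left out in the cluster window, 13 were below 0, with a median of -0.087. Of the 55 tested single-exon models elsewhere, 35 were below 0, with a median of -0.088. Whether the 14 differed from these sets was not tested. In 1 of the 14, uc007psc.1, each shLuc_LPS library lay below each shLuc library, where 11.5% of all gene models tested did so. Its log2 fold change was -0.26 ± 0.08 (SE), with an adjusted p of 0.0614 by edgeR and 0.0406 by DESeq2, and limma-voom called none of the 14. Without shLuc replicate 3, edgeR called 2 models lower, uc007psc.1 (adjusted p = 0.0285) and uc007prc.1.

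In knockdown cells, shIrf3_LPS was compared with shIrf3. No model was called by edgeR, DESeq2 or limma-voom, where edgeR called 8.01% of all gene models tested. The fitted change was above 0 for 11 of the 14, against 50.6% of all gene models tested, whose median was 0.003. The 14 had a median of 0.21. The median was 0.06 without shIrf3_LPS replicate 3 and 0.12 to 0.13 without shLuc replicate 1 or 3, shIrf3 replicate 3 or any 1 shLuc_LPS library. The smallest p belonged to uc007pre.1 (21826965 to 21827276, plus strand, 312 bases), at 0.373, 0.131 and 0.151 CPM in shIrf3 and 0.493, 0.303 and 0.487 CPM in shIrf3_LPS. Its log2 fold change of 1.06 ± 0.46 (SE) had an adjusted p of 0.182 by edgeR, and it was the 1 model of the 14 (7.14%) with an unadjusted p under 0.05, where 21.9% of all gene models tested had one.

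**Figure D5:**
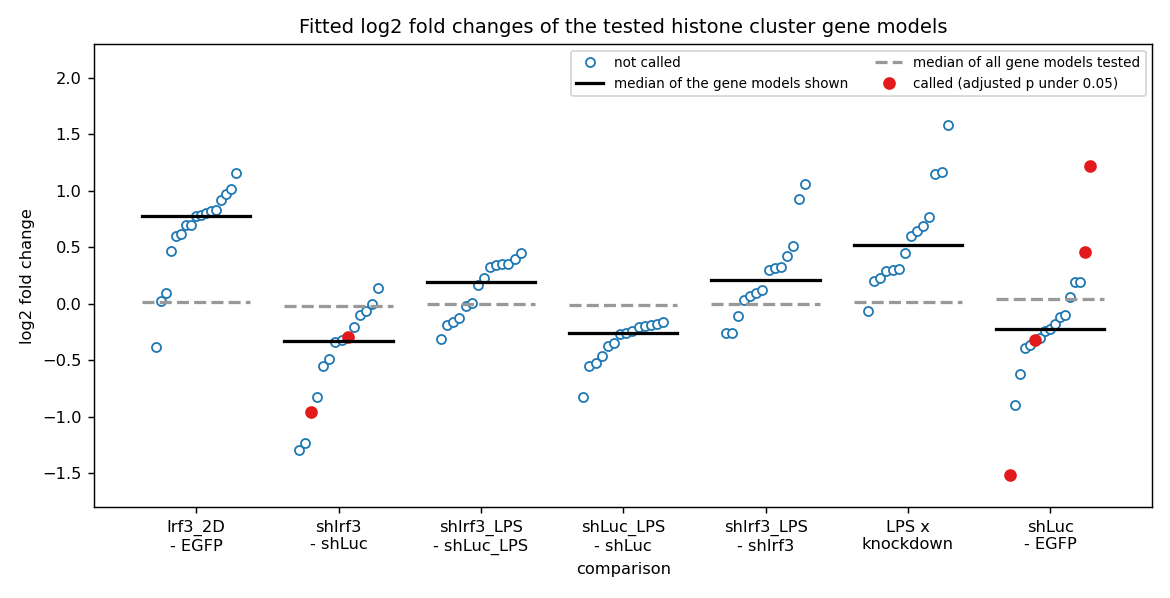
Fitted log2 fold change of each tested gene model (points) in the 6 group comparisons and the interaction, with called models filled red, the median of the models shown (black bar) and the median of all gene models tested (grey dashed bar). The black bar is highest for Irf3_2D minus EGFP (0.77) although no point there is called, and 2 points are called for shIrf3 minus shLuc.

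The vector controls of the 2 arms, shLuc and EGFP, were compared in the fit of all 18 libraries. These groups differ in vector, and the labels do not say whether they were cultured or sequenced together, so vector and handling cannot be told apart. By edgeR 4 of the 17 tested models passed, where 50.4% of all gene models tested did. uc007pri.1 and uc007ptv.2 were higher in shLuc (25.1% of all gene models tested were), and uc007puy.1 and uc007psc.1 were lower (25.3% were). uc007pri.1 was at 3.83, 1.89 and 3.14 CPM in EGFP and at 9.04, 5.07 and 6.32 CPM in shLuc, with no overlap and a log2 fold change of 1.22 ± 0.31 (SE, adjusted p = 0.0031 by edgeR). uc007puy.1 (23853722 to 23854255, minus strand, 534 bases) was at 0.523, 0.271 and 0.795 CPM in EGFP and at 0.234, 0.177 and 0.113 CPM in shLuc, and fell by 1.52 ± 0.47 (SE) on the log2 scale (adjusted p = 0.0117 by edgeR). Its shLuc values rest on 7, 5 and 3 counts. It did not pass the filter in the fit of the knockdown arm, so its test here rests on its higher levels in EGFP and Irf3_2D. The call held in 24 of 25 alternatives and was lost without EGFP replicate 3 (adjusted p = 0.0846 by edgeR).

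The 2 most abundant models differed between the control groups in opposite directions. uc007ptv.2 had a mean of 9.75 ± 2.05 CPM in EGFP and 13.4 ± 3.34 CPM in shLuc (adjusted p = 0.0373 by edgeR), and these groups overlapped. This call held in 15 of 27 alternatives, with an adjusted p of 0.0185 to 0.356. It was lost with only the 6 libraries compared and without any 1 of EGFP replicates 1 and 3, shLuc replicate 1, the shIrf3 and shLuc_LPS libraries, and shIrf3_LPS replicates 1 and 3. Without shLuc replicate 1, the log2 fold change was 0.21 in place of 0.46. uc007psc.1 had a mean of 36.2 ± 4.08 CPM in EGFP and 29.0 ± 2.58 CPM in shLuc (adjusted p = 0.0400 by edgeR), with no overlap. This call held in 21 of 27 alternatives, and was lost with no filter on low counts, with only the 6 libraries compared, and without EGFP replicate 2 or 3 or shLuc replicate 1 or 3. With only the 6 libraries of these groups in the fit, or without EGFP replicate 3, 1 model, uc007pri.1, was still called. Over the 6 groups, uc007ptv.2 was lowest in shIrf3 (6.97 ± 1.02 CPM) and then Irf3_2D (7.499 ± 0.709 CPM), which overlap, and highest in shLuc.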

How the data were processed

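RNA was sequenced from 18 libraries, grouped by their titles. Libraries were made after removal of ribosomal RNA, with a kit that does not mark strand, per the labels' protocols. Per the submitters' processing notes, the build was mm9 and the tools included TopHat2 2.0.14 and featureCounts 1.4.6, with settings for multi-mapped reads that the sources used here do not give. The authors deposited unnormalized read counts for 27473 gene models.

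The 36 models and the comparison sets were chosen with earlier results of these data known. Counts of all gene models were tested with edgeR 4.0.16 in R 4.3.3 (filterByExpr, TMM, robust quasi-likelihood F test, Benjamini-Hochberg adjustment over all models tested, threshold 0.05), and the rows of the 36 were then read out. A standard error is the absolute log2 fold change over the root of its F statistic. Overexpression was fitted from 6 libraries, the knockdown arm from 12, and the control vectors from 18. The steps were tested on simulated data.

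Values in every library are given for the 6 models with the highest mean CPM. Per comparison, up to 2 called models per direction with the largest change are named, or the model with the smallest p, and any others were chosen after their values were seen. Lists of named pathway, cell type and S phase genes need symbols and were not used, and the level of Irf3 and of adipocyte markers was not checked for the same reason. Sequence by coordinate was not used, since the reference is of build GRCm38. The alternatives tried were limma-voom (limma 3.58.1), DESeq2 1.42.0, other scalings and filters, other sets of libraries, and each library left out. Limits for 0 counts cover counting error only.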

Additional observations from a re-analysis of the deposited data

How the results depend on the processing

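Counts of called models moved by 0 to 2 across alternatives. The shares of all gene models called were computed for the main fits only, so counts of calls in the alternatives have no background. Overexpression gave 1 higher with DESeq2 and 2 with all 18 libraries in 1 fit, and 0 to 2 with a library left out. Knockdown gave 1 lower with library totals, with only the 6 libraries compared and with all 18 libraries, and 1 to 3 with a library left out. LPS in control cells gave 1 lower with DESeq2 and 0 to 2 with a library left out. The control vectors gave 1 higher and 0 lower with only their 6 libraries, 1 lower with no filter on low counts and 1 lower with at least 1 CPM in 3 libraries, and 1 to 2 higher and 0 to 2 lower with a library left out. The cause was not tested.

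Signs of changes near 0 reversed with a library left out. For knockdown, uc007pue.2 ran from -0.22 to 0.09 (0.03 without shIrf3 replicate 3 and 0.0917 without shLuc replicate 1), and uc007puo.1 from -0.27 to 0.0523 (0.04 without shLuc replicate 1). For overexpression, uc007psc.1 ran from -0.16 to 0.14 (below 0 without Irf3_2D replicate 2 or EGFP replicate 1, the latter -0.06), and uc007pue.2 from -0.0058 to 0.24 (below 0 without Irf3_2D replicate 3). The other single changes recomputed under the alternatives, a subset of those named, kept their sign. Median changes kept their sign except for knockdown under LPS with at least 1 CPM in 3 libraries (-0.0031) and the control vectors, whose medians ran from -0.39 to 0.0049 with a library left out. Without mitochondrial models the summed level was 52.1 CPM in shIrf3 and 57.0 in shIrf3_LPS, where the move exceeded the SD of the group. Besides leaving out a library, 3 alternatives were run for sums. Their highest values in the other groups were 70.6 CPM in EGFP, 82.9 in Irf3_2D, 69.8 in shLuc and 57.1 in shLuc_LPS. These were also above the main values, by less than the SD.

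Correlations of the deviations of same-numbered libraries from their group means ran from -0.187 to 0.225. They were not compared with those of differently numbered libraries, so they cannot decide whether the shared replicate numbers mark pairs. With the replicate block, LPS in control cells gave 1 model lower, uc007psc.1 (adjusted p = 0.0416 by edgeR), and the other counts of calls were as without it. Low counts left models untested: 19 of the 36 models in the overexpression fit and 22 in the knockdown fit did not pass the filter.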
